A study of Mus musculus with 6 samples.

Results

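Genes of MHC class I antigen processing and presentation were compared between cells labelled KMT2D WT and KMT2D KO from tumours of a mouse melanoma model. The set held 10 genes, found by their symbols among the 24391 genes of the count files: the heavy chains H2-K1 and H2-D1, the light chain B2m, the transporter subunits Tap1 and Tap2, the loading factor Tapbp, the immunoproteasome subunits Psmb8, Psmb9 and Psmb10, and the regulator Nlrc5. All 10 had enough counts to be tested, as did 14579 genes in all. All 10 were higher in the cells labelled KMT2D KO, in every library, by between 1.33-fold and 7.61-fold. The largest differences were those of Tap1, Psmb9 and Psmb8, and the smallest was that of H2-D1. Among all tested genes, 37.2% had every KMT2D KO library above every KMT2D WT library.

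MHC class I molecules display short peptides from proteins made inside the cell to CD8 T cells. The proteasome cuts proteins into peptides, the TAP transporter carries these into the endoplasmic reticulum, and the loading complex fits them into a heavy chain paired with beta-2 microglobulin. Interferons are the textbook inducers of these genes, and NLRC5 is a transactivator of class I genes that acts with promoter-bound factors. In melanoma the pathway is known for its part in recognition of tumour cells by T cells.

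RNA sequencing had been done on cells from tumours of iBIP mice, which carry PTENL/L and INK/ARFL/L alleles together with TetO-BRAFV600E, Rosa26-rtta and Tyr-CreERT2 on a mixed FVB and B6 background. Cre is driven by the tyrosinase promoter, doxycycline switches on the BRAF transgene, and 4-OHT painted on the ears activates Cre, so these alleles and agents were common to both groups. KMT2D WT (3 libraries) was from iBIP;KMT2D+/+ mice and KMT2D KO (3 libraries) from iBIP;KMT2DL/L mice. Age, the number of mice or tumours and the origin of the replicates are not given in the labels, so p-values speak only for the scatter among these libraries, which could be technical. A difference between the groups cannot be told apart from a difference between the tumours the cells came from. The alleles of the H2 region differ between FVB and B6 mice, the labels give no H2 haplotype, and a difference in haplotype between the groups cannot be told apart from one in Kmt2d. The RNA protocol names cerebellar tissue, whereas the other labels name tumour cells kept in culture.

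Between 43168605 and 59360068 counts were assigned to genes in the KMT2D WT libraries and between 55594979 and 79718782 in the KMT2D KO libraries. Log2 CPM (counts relative to library size scaled by TMM, as CPM throughout) correlated at 0.976 to 0.994 across genes between libraries of a group and at 0.854 to 0.873 between the groups. Kmt2d itself measured 79.7, 87.6 and 101 CPM in KMT2D WT and 73.0, 69.3 and 79.8 CPM in KMT2D KO, and the groups overlapped. Its log2 fold change (KMT2D KO minus KMT2D WT, as throughout) was -0.27 with an SE of 0.08 and an adjusted p of 0.0075 (edgeR). A count over the whole gene does not test the deletion of the floxed part.

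Sequences upstream of class I genes are shown because the members rose together and because H2-K1 and H2-D1, which resemble each other there, differed in the size of their rise. RefSeq promoter windows (GRCm38.p6, the C57BL/6J reference, from 250 bases before to 50 bases after an annotated start) were found for 8 of the 10 genes, all but Tap2 and Nlrc5. Windows of 4 of them are given 5′ to 3′ on the gene's strand, with capitals for exact matches on either strand to the motifs described after them. H2-K1 is at chr17:34000298-34000597 (minus strand), H2-D1 at chr17:35262844-35263143 (plus strand), B2m at chr2:122147437-122147736 (plus strand) and Tap1 at chr17:34187306-34187605 (plus strand).
H2-K1: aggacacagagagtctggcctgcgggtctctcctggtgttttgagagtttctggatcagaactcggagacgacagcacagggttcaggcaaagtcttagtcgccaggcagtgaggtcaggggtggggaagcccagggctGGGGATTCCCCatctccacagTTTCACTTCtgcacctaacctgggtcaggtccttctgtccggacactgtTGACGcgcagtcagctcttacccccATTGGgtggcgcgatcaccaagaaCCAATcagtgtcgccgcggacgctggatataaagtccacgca
H2-D1: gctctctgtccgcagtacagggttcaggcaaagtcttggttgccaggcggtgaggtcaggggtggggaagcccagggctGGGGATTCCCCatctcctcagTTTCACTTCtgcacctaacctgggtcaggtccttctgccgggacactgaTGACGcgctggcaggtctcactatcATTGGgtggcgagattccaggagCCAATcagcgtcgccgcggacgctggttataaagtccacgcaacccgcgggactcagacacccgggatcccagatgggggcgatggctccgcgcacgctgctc
B2m: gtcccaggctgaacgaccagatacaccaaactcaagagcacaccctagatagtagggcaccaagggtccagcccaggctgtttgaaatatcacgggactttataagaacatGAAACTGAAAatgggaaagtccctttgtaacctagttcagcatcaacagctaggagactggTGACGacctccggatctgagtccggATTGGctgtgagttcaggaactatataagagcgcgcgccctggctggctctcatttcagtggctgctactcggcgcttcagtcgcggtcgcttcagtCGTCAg
Tap1: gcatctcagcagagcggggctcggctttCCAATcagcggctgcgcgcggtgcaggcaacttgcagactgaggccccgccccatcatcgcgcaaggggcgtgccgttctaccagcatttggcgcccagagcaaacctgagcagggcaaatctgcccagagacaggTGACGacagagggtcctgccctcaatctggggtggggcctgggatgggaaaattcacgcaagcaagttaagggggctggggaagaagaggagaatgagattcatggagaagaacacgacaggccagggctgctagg

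The interferon response element core GAAANNGAAA stood in the B2m window and in no other of the 8 genes, and in 3.44% of all 32851 windows. The cyclic AMP element core TGACG stood in the windows of H2-K1, H2-D1, B2m, Tap1 and Psmb9, and in 20.8% of all windows. The CCAAT box CCAAT stood in 6 of the 8 genes (H2-K1, H2-D1, B2m, Tap1, Tapbp and Psmb9) and in 37.4% of all windows. The GAS element TTCNNNGAA, the form bound by STAT dimers, stood in Psmb8 alone of the 8 genes and in 8.30% of all windows. These matches describe letters and are neither sites of binding nor causes.

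H2-K1 and H2-D1 shared 2 further matches that were looked for after their sequences had been seen. The shortened interferon element GAANNGAAA was found in these 2 of the 8 genes and in 7.52% of all windows. The kappa B palindrome GGGGATTCCCC was found in the same 2 genes and in 10 of the 32851 windows (0.0304%), among them that of H2-Q6, another class I heavy chain. Aligned without gaps, the H2-K1 and H2-D1 windows were identical at 176 of 240 bases (73.3%), with a longest shared run of 47 bases that holds the palindrome. Psmb9 and Tap1 are transcribed away from each other, and their windows share 275 bases, so they are not separate observations.

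Heavy and light chains form the class I molecule itself. H2-K1 (chromosome 17, 34132957 to 34137278, minus strand, in mm9 as all gene positions here) measured 122, 124 and 107 CPM in the KMT2D WT libraries and 409, 432 and 385 CPM in the KMT2D KO libraries. The groups did not overlap, and the means were 118 ± 9.50 (SD, n = 3) and 408 ± 23.3 (SD, n = 3). The log2 fold change of H2-K1 was 1.80 (SE 0.07), a 3.47-fold rise with an adjusted p of 3.8e-12 (edgeR). In bulk libraries, more cells of a type and more RNA per cell cannot be told apart.

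H2-D1 (chromosome 17, 35400039 to 35404442, plus strand) measured 356, 387 and 365 CPM in KMT2D WT and 499, 516 and 463 CPM in KMT2D KO. Here too every KMT2D KO library lay above every KMT2D WT library, but by less. The log2 fold change was 0.42 (SE 0.06), a 1.33-fold rise with an adjusted p of 8.8e-06 (edgeR). It was the only one of the 10 that did not pass when tested against a minimum change of 1 on the log2 scale. Of the 1736 exonic bases of H2-D1, 1060 are annotated to H2-L and LOC547349 as well, and fragments that overlap several genes are left out by the counting default. The H2-D1 count therefore leaves out part of its fragments, and counts of H2 genes with near-identical copies are uncertain. The other 9 genes share no exonic base with another gene.

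B2m encodes beta-2 microglobulin, the light chain common to all class I heavy chains (chromosome 2, 121973423 to 121978818, plus strand). It measured 525, 629 and 744 CPM in KMT2D WT and 2118, 2024 and 1864 CPM in KMT2D KO. Its KMT2D WT libraries were spread over a wide range, yet the lowest KMT2D KO library was far above the highest of them. The log2 fold change was 1.66 (SE 0.10), a 3.16-fold rise with an adjusted p of 7.2e-10 (edgeR).

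The balance between the chains differed as well. Per kb of exon, H2-K1 stood at 0.361, 0.338 and 0.308 of the level of H2-D1 in KMT2D WT and at 0.863, 0.882 and 0.877 of it in KMT2D KO. B2m stood at 2.19, 2.46 and 3.15 times the summed level of the 2 heavy chains in KMT2D WT and at 4.61, 4.22 and 4.34 times in KMT2D KO. Neither ratio overlapped between the groups. Both were chosen after the values had been seen and were not tested, and both rest on the H2-D1 count, which leaves out shared exons.

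**Figure D1:**
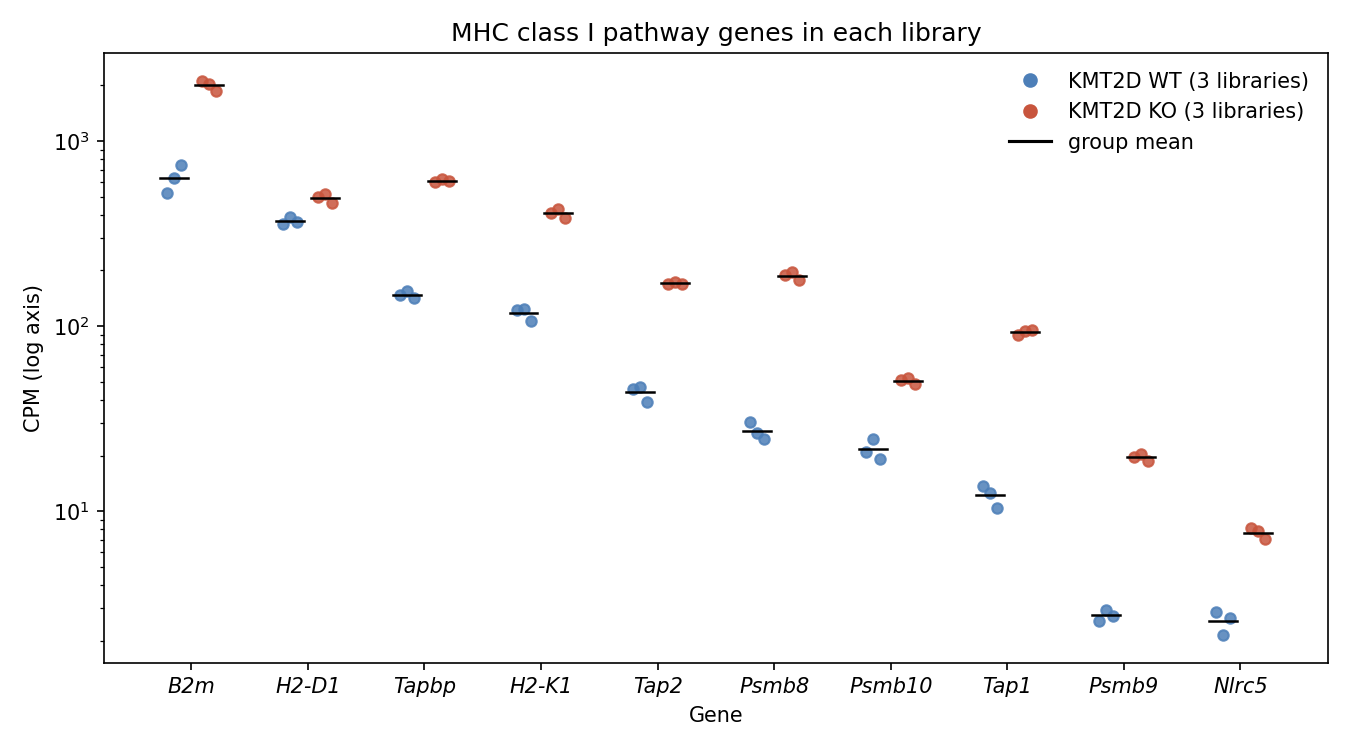
Level of each of the 10 class I genes in each library, as CPM on a log axis (points: libraries; KMT2D WT and KMT2D KO, 3 libraries each). In every gene the 3 KMT2D KO points lie above the 3 KMT2D WT points, with the narrowest gap at H2-D1 (356 to 387 against 463 to 516 CPM).

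Immunoproteasome subunits replace the catalytic subunits of the standard proteasome and favour peptides that fit class I molecules. Psmb8 (chromosome 17, 34335140 to 34338399, plus strand), which takes the place of Psmb5, measured 30.2, 26.5 and 24.5 CPM in KMT2D WT and 188, 197 and 177 CPM in KMT2D KO. The groups were far apart, with a log2 fold change of 2.79 (SE 0.08), 6.93-fold, and an adjusted p of 1.2e-13 (edgeR).

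Psmb9 (chromosome 17, 34319044 to 34324275, minus strand), which takes the place of Psmb6, measured 2.55, 2.94 and 2.73 CPM in KMT2D WT, from 149, 182 and 122 counts. In KMT2D KO it measured 19.7, 20.4 and 18.7 CPM. The groups did not overlap, and the log2 fold change was 2.84 (SE 0.11), 7.16-fold, with an adjusted p of 7.7e-12 (edgeR).

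Psmb10 (chromosome 8, 108459628 to 108462292, minus strand), which takes the place of Psmb7, measured 20.9, 24.7 and 19.1 CPM in KMT2D WT and 50.9, 52.6 and 48.5 CPM in KMT2D KO. It rose in every library too, but less than the other 2 immunosubunits, with a log2 fold change of 1.23 (SE 0.09), 2.35-fold, and an adjusted p of 8.4e-09 (edgeR).

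The standard subunits that these 3 replace moved little. Psmb5 measured 39.5, 41.6 and 33.8 CPM in KMT2D WT and 31.7, 36.6 and 30.7 CPM in KMT2D KO, Psmb6 went from a mean of 124 to 139 CPM, and Psmb7 from 79.6 to 86.5 CPM. In all 3 the groups overlapped. The log2 fold changes were -0.22 (SE 0.09, adjusted p 0.041), 0.17 (SE 0.06, adjusted p 0.029) and 0.12 (SE 0.06, adjusted p 0.0997, edgeR), so Psmb7 was not called. Psmb5 was not called without KMT2D WT replicate 1 or 2 or without KMT2D KO replicate 1 or 3, where its adjusted p was 0.11, 0.20, 0.16 and 0.18. Psmb6 was not called without KMT2D WT replicate 1 or KMT2D KO replicate 1 or 2 (adjusted p 0.078, 0.080 and 0.14), and Psmb7 was called without KMT2D KO replicate 3 (adjusted p 0.038).

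Each immunosubunit was also set against its standard partner in the same library, per kb of exon. Psmb8 over Psmb5 was 0.544, 0.453 and 0.516 in KMT2D WT and 4.23, 3.83 and 4.11 in KMT2D KO, so that the partner was the more abundant in KMT2D WT and the immunosubunit in KMT2D KO. Psmb9 over Psmb6 was 0.0272, 0.0286 and 0.0293 in KMT2D WT and 0.180, 0.176 and 0.187 in KMT2D KO. Psmb10 over Psmb7 was 0.199, 0.230 and 0.190 in KMT2D WT and 0.457, 0.431 and 0.456 in KMT2D KO. These last 2 pairs kept the standard subunit ahead in all 6 libraries. The ratios differed 8.06-fold, 6.38-fold and 2.18-fold between the groups, which is 3.01, 2.67 and 1.12 on the log2 scale. In an exact two-sided permutation test over libraries, each ratio gave p = 0.1, also after adjustment over the 3 ratios, which is the smallest p that 3 against 3 libraries allow.

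**Figure D2:**
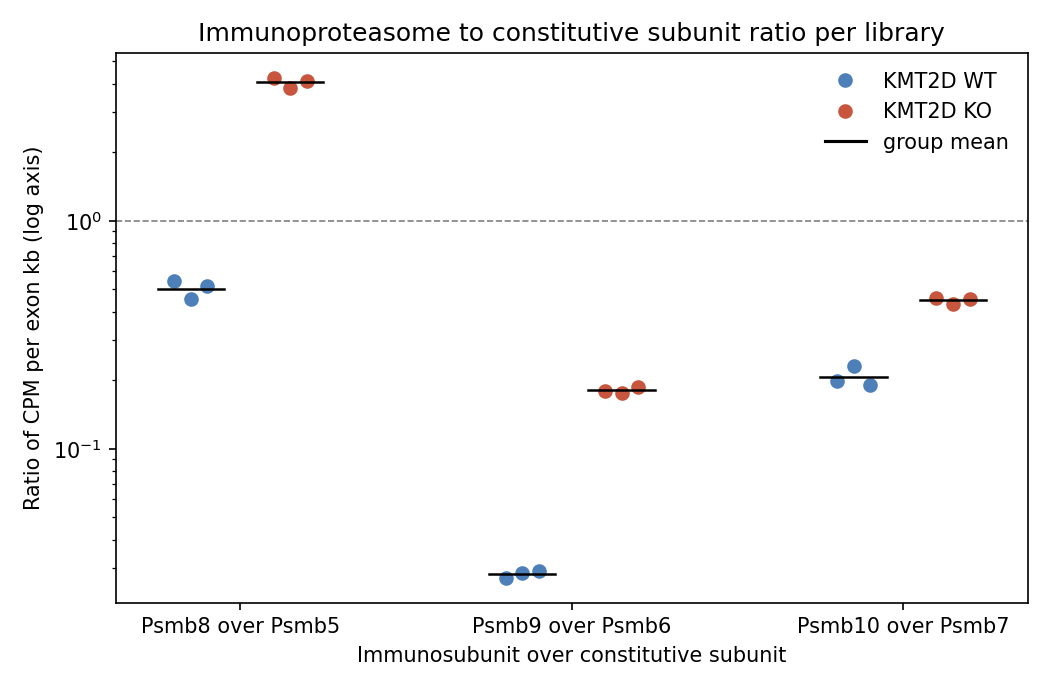
Ratio of each immunoproteasome subunit to the standard subunit it replaces, from CPM per exon kb, on a log axis (points: libraries, 3 per group; dashed line: equal levels). Psmb8 over Psmb5 passes from 0.453 to 0.544 in KMT2D WT to 3.83 to 4.23 in KMT2D KO, across the line of equal levels, while the other 2 ratios stay under it.

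Peptides reach the endoplasmic reticulum through TAP, a transporter made of 1 Tap1 and 1 Tap2 chain. Tap1 (chromosome 17, 34324501 to 34334170, plus strand) measured 13.7, 12.6 and 10.4 CPM in KMT2D WT and 89.6, 94.4 and 94.8 CPM in KMT2D KO. This was the largest rise of the 10 genes, with a log2 fold change of 2.92 (SE 0.09), 7.61-fold, and an adjusted p of 3.3e-13 (edgeR). By CPM per exon kb, Tap1 was above 41.8% of tested genes in KMT2D WT and above 84.9% of them in KMT2D KO.

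Tap2 (chromosome 17, 34341424 to 34353266, plus strand) measured 46.0, 47.1 and 38.7 CPM in KMT2D WT and 169.8, 173 and 169.8 CPM in KMT2D KO. The groups did not overlap, and the log2 fold change was 1.96 (SE 0.07), 3.89-fold, with an adjusted p of 2.7e-12 (edgeR). Per exon kb, the level of Tap2 was 3.98, 4.44 and 4.42 times that of Tap1 in KMT2D WT and 2.25, 2.17 and 2.12 times in KMT2D KO. The 2 chains were thus closer to each other in KMT2D KO in all 3 libraries, a ratio chosen after the values had been seen and not tested.

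Tapbp encodes tapasin, which bridges TAP and the empty heavy chain (chromosome 17, 34056423 to 34066235, plus strand). It measured 148, 155 and 141 CPM in KMT2D WT and 602, 624 and 606 CPM in KMT2D KO. The groups were well separated, with a log2 fold change of 2.05 (SE 0.05), 4.13-fold, and an adjusted p of 7.5e-14 (edgeR), the lowest of the 10.

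Nlrc5 (chromosome 8, 96996663 to 97051172, plus strand), the transactivator, was the least abundant of the 10 per exon kb. It measured 2.86, 2.15 and 2.66 CPM in KMT2D WT, from 167, 133 and 119 counts, and 8.09, 7.83 and 7.07 CPM in KMT2D KO. All KMT2D KO libraries lay above all KMT2D WT libraries. The log2 fold change was 1.59 (SE 0.15), 3.00-fold, with an adjusted p of 2.3e-07 (edgeR), and its SE was the largest of the 10.

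In sum over the 10 genes, 1267, 1411 and 1455 CPM were measured in KMT2D WT and 4154, 4141 and 3835 CPM in KMT2D KO, with means of 1378 ± 98.3 (SD, n = 3) and 4043 ± 181 (SD, n = 3). All 10 genes were called higher and 0 lower at an adjusted p under 0.05 (edgeR). Of all tested genes, 71.0% were called in either direction, 35.4% were called higher and 35.5% lower. Of the 10, 9 were called with a log2 fold change above 1, against 13.9% of all tested genes. In all 10 the 3 KMT2D KO libraries stood above the 3 KMT2D WT libraries, against 37.2% of tested genes. The median log2 fold change was 1.88 over the 10 genes and 0.00 over all tested genes.

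**Figure D3:**
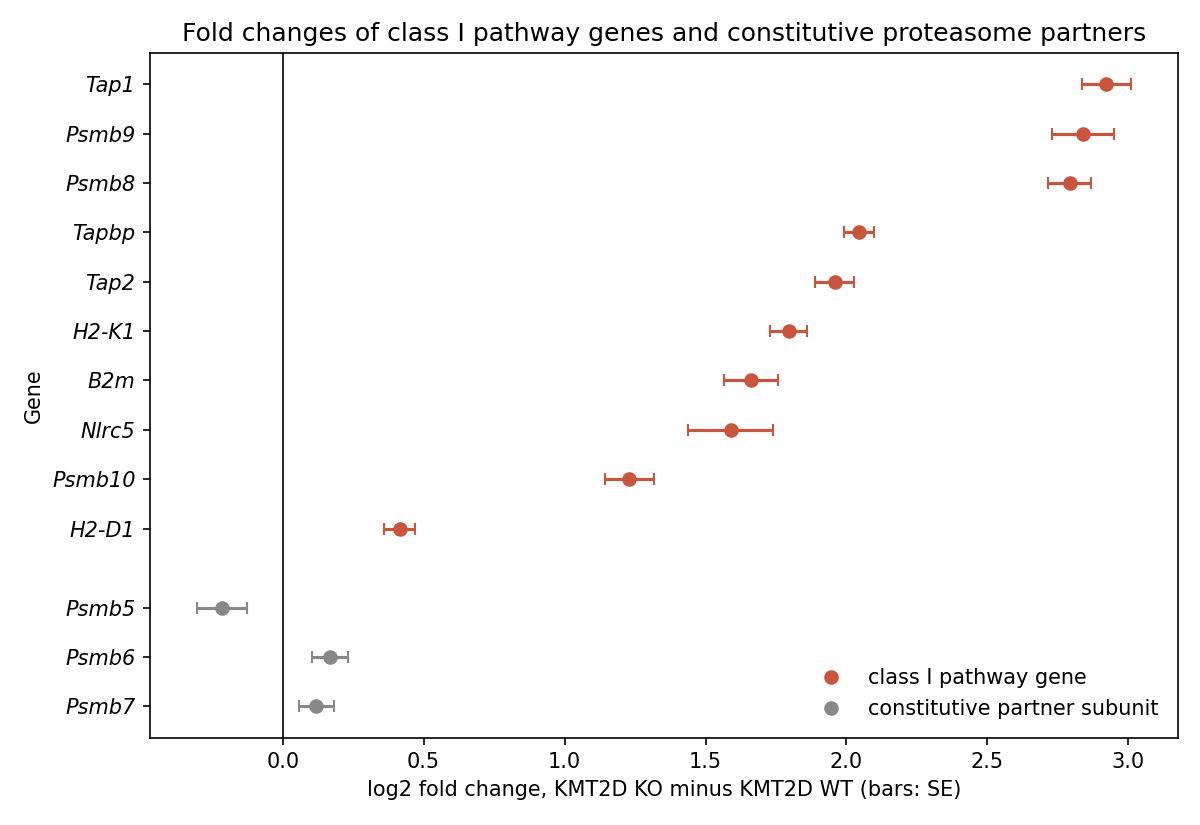
Log2 fold change (KMT2D KO minus KMT2D WT, bars: SE, from 3 libraries per group) of the 10 class I genes and of the standard proteasome subunits Psmb5, Psmb6 and Psmb7. Tap1 (2.92), Psmb9 (2.84) and Psmb8 (2.79) lie furthest right, H2-D1 (0.42) is the lowest of the 10, and the standard subunits lie between -0.22 and 0.17.

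Levels can be compared between genes only per length, and on CPM per exon kb the order of the 10 was the same in both groups. It ran from B2m (mean 737 in KMT2D WT and 2333 in KMT2D KO) through H2-D1 (213 and 284), H2-K1 (71.5 and 248), Tapbp (53.8 and 222) and Psmb8 (22.1 and 153). Below these came Tap2 (17.6 and 68.6), Psmb10 (16.99 and 39.9), Tap1 (4.14 and 31.5), Psmb9 (3.40 and 24.3) and Nlrc5 (0.37 and 1.10). In KMT2D WT the libraries of Tap2 (15.6 to 18.9) overlapped those of Psmb10 (15.1 to 19.5), and the order of these 2 genes differed between libraries. The ranges of Tap1 (3.52 to 4.64) and Psmb9 (3.16 to 3.65) overlapped too, although within each library Tap1 stood above Psmb9, at 4.64, 4.26 and 3.52 against 3.16, 3.65 and 3.38. In KMT2D KO no neighbouring pair overlapped. H2-D1 keeps its place above H2-K1 although its shared exons are left out. Over its 676 unshared bases alone it would stand at 547 and 729.

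Of the 10 genes, 7 lie on chromosome 17 in the MHC, between 34056423 and 35404442. Psmb9, Tap1, Psmb8 and Tap2 lie next to each other, with 225 bases between Psmb9 and Tap1, 969 between Tap1 and Psmb8, and 3024 between Psmb8 and Tap2. The interval from Tapbp to H2-D1 holds 102 other genes, of which 67 were tested, 27 called higher (40.3%), 19 lower and 21 not called, with a median log2 fold change of 0.12. The share called higher was near the 35.4% of all tested genes. The nearest tested genes on either side of the Psmb9 to Tap2 stretch, H2-DMb1 and H2-Ab1, were called higher (log2 fold changes 4.21 and 4.01). Beyond them H2-DMb2 (5.56) and H2-DMa (1.42) were called higher, and Brd2 (-0.37) and Notch4 (-2.46) lower. H2-Ab1 and H2-DMb2 passed the low-count filter through the KMT2D KO libraries alone, so their being tested was tied to their being high there. H2-Ob, which lies between Tap2 and H2-Ab1, was not tested. On the whole of chromosome 17 without the 7 class I genes, 35.8% of 710 tested genes were called higher, with a median log2 fold change of 0.04. The same share was 51.1% on chromosome 2, which holds B2m (median 0.27), and 47.0% on chromosome 8, which holds Psmb10 and Nlrc5 (median 0.21).

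**Figure D4:**
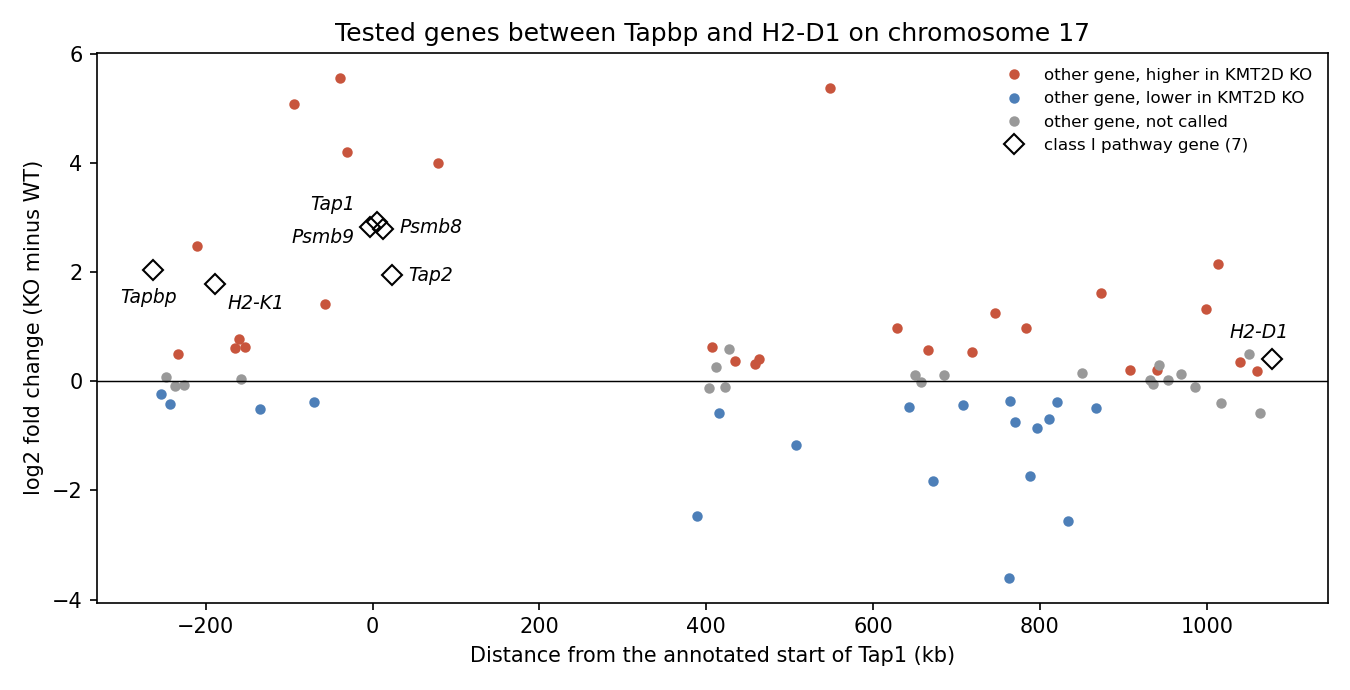
Log2 fold change of each tested gene between Tapbp and H2-D1 on chromosome 17, against the distance from the annotated start of Tap1 in kb (diamonds: the 7 class I genes; dots: 67 other genes by their call). The 7 lie between 0.42 and 2.92, while the other genes lie on both sides of 0, 27 called higher and 19 lower.

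Other class I and class I-like heavy chains, which include the Qa, Tla and M families, moved mostly the same way. Of 29 such genes, 8 had no count in any library and 16 were tested. Among those without a count, H2-Q6 lies within H2-Q8, H2-Q9 within H2-Q7, and H2-T9 within H2-T22 by annotated position. Fragments that overlap several genes are left out by the counting, so a missing count there does not show absence of RNA. Of the 16 tested, 13 were called higher, 1 lower and 2 not called (H2-Q1 and Hfe), with a median log2 fold change of 1.17. Over all tested genes 35.4% were called higher and 35.5% lower. H2-T23, which encodes the Qa-1 molecule that presents to natural killer receptors, measured 3.01, 3.58 and 3.60 CPM in KMT2D WT and 21.4, 24.2 and 24.2 CPM in KMT2D KO. Its groups did not overlap (log2 fold change 2.77, SE 0.11, adjusted p 1.1e-11, edgeR). H2-T24 measured 0.547, 0.759 and 1.16 CPM in KMT2D WT and 10.3, 10.4 and 9.16 CPM in KMT2D KO (log2 fold change 3.63, SE 0.21, adjusted p 6.3e-10, edgeR).

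H2-M9 went the other way. It had 128, 77 and 53 counts in the KMT2D WT libraries and 1, 0 and 0 in the KMT2D KO libraries, a ratio of 299 in favour of KMT2D WT with an exact 95% interval of 53.2 to 11853 that covers counting error only. Its fitted log2 fold change was -7.73 (adjusted p 2.6e-07, edgeR) and -9.43 without KMT2D KO replicate 1, the library with the single count. H2-M9 passed the low-count filter through the KMT2D WT libraries alone, so its being tested was tied to its being high there. Among the heavy chains called higher, H2-T22 passed that filter through the KMT2D KO libraries alone. H2 genes of near-identical sequence share fragments that the counting leaves out, so the levels in this family are uncertain.

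The list of peptide loading chaperones also held general chaperones and glycoprotein enzymes of the endoplasmic reticulum. Its genes changed less than the 10 genes other than H2-D1, and in both directions. Of 9, 6 were called higher and 3 lower, against 35.4% and 35.5% of all tested genes, with a median log2 fold change of 0.30. Calr, the calreticulin that holds the heavy chain during loading, rose from 1540 to 2313 CPM (log2 fold change 0.59, SE 0.05, adjusted p 6.9e-08, edgeR), and Hspa5, an endoplasmic reticulum chaperone, from 859 to 1218 CPM (0.50). Uggt1, the glycoprotein sensor of that compartment, fell from 373 to 240 CPM (log2 fold change -0.63, SE 0.06, adjusted p 9.4e-08, edgeR), and Prkcsh, a glucosidase subunit, from 212 to 170 CPM (-0.31). In all 4 the groups did not overlap.

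Enzymes that trim peptides were split. Of 8, the test called 2 higher and 4 lower and left 2 uncalled, against 35.4% higher and 35.5% lower over all tested genes, and their median log2 fold change was -0.20. Erap1, the aminopeptidase that shortens peptides inside the endoplasmic reticulum, rose from 67.3 to 107 CPM (log2 fold change 0.68, SE 0.06, adjusted p 1.7e-07, edgeR). Blmh, a cytosolic bleomycin hydrolase, rose from 32.1 to 65.4 CPM (1.03). Thop1, a cytosolic peptidase known to degrade class I peptides, fell from 39.7 to 29.5 CPM (-0.43), and Nrd1 from 170 to 129 CPM (-0.40).

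Proteasome activators and assembly factors were also split. Of 10, the test called 4 higher and 5 lower and left 1 uncalled, with the calls higher near the 35.4% of all tested genes, and their median log2 fold change was -0.29. Psme1 and Psme2, the subunits of the interferon-inducible PA28 activator, rose from 93.7 to 168 CPM (log2 fold change 0.85, SE 0.05, adjusted p 2.8e-09, edgeR) and from 81.3 to 115 CPM (0.50). Pomp, the assembly factor of both kinds of proteasome, fell from 105 to 63.6 CPM (log2 fold change -0.72, SE 0.07, adjusted p 2.2e-07, edgeR), and the assembly chaperone Psmg2 fell from 15.1 to 10.3 CPM (-0.56).

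Of 14 standard subunits of the 20S core, 2 were called higher, 7 lower and 5 not called, with a median log2 fold change of -0.14. Over all tested genes 35.4% were called higher and 35.5% lower. Psma4 fell from 189 to 113 CPM (log2 fold change -0.74, SE 0.07, adjusted p 1.1e-07, edgeR) and Psma2 from 178 to 112 CPM (-0.67). Psma7 was called higher along with Psmb6, at 83.1 and 96.6 CPM with overlapping groups (log2 fold change 0.22, adjusted p 0.019, edgeR). With library size as the only scaling, which moves the median of all genes by -0.11, neither Psma7 (0.11, adjusted p 0.22) nor Psmb6 (0.06, adjusted p 0.45) was called. The number called higher was 1 without KMT2D WT replicate 1 or 2 and 0 without KMT2D KO replicate 1 or 2, and the number called lower was 4 without KMT2D WT replicate 2 or KMT2D KO replicate 3.

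**Figure D5:**
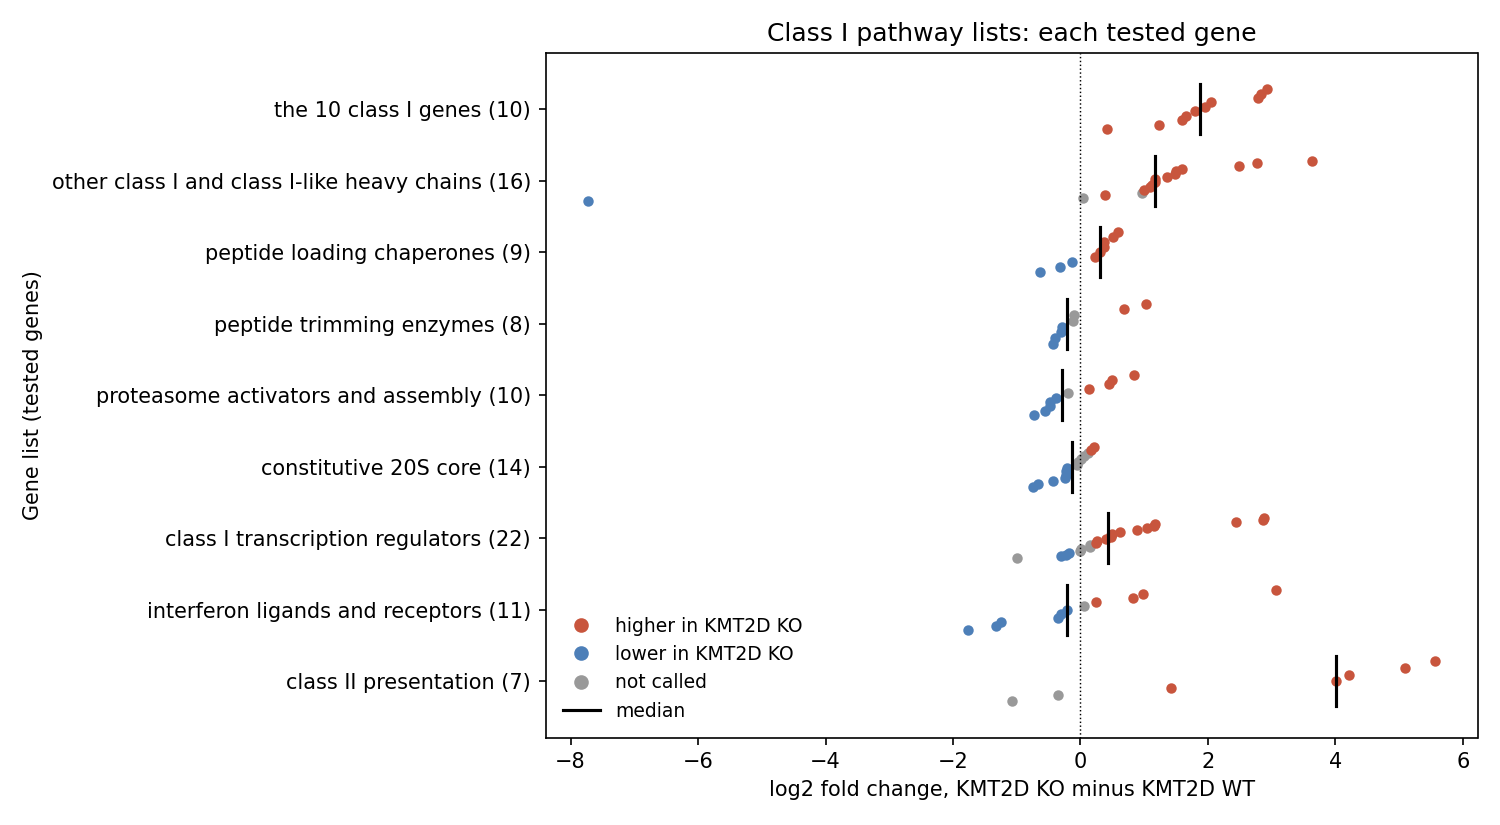
Log2 fold change (KMT2D KO minus KMT2D WT) of every tested gene of the 10 class I genes and of the other lists of the pathway (dots: genes; vertical marks: medians; in brackets, the number tested). The 10 class I genes (median 1.88) and the other heavy chains (median 1.17) lie mostly right of 0, and the loading, trimming and proteasome lists lie around it, with medians from -0.29 to 0.30. The dot far to the left is H2-M9 (-7.73).

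The list of class I transcription regulators held factors of the STAT, IRF, NF-kappa B, RFX, NF-Y and cyclic AMP element families and also Ezh2, Eed and Suz12, subunits of a Polycomb complex that represses genes. Of its 22 genes the test called 14 higher, Eed and Suz12 among them, and 3 lower and left 5 uncalled. Over all tested genes 35.4% were called higher and 35.5% lower. The median log2 fold change of the list was 0.43. With library size as the only scaling 11 of the 22 were called higher. Stat2, a signal transducer of the type I interferon response, measured 12.6, 10.2 and 11.6 CPM in KMT2D WT and 82.8, 83.5 and 82.4 CPM in KMT2D KO. The groups were well separated, with a log2 fold change of 2.86 (SE 0.08) and an adjusted p of 1.3e-13 (edgeR), beside 2.92, 2.79 and 2.84 for Tap1, Psmb8 and Psmb9. Nfyb, a subunit of the CCAAT-binding NF-Y, and Atf1, which binds the cyclic AMP element, were called lower at -0.30 and -0.22. Without KMT2D KO replicate 1 only 1 gene of the list was called lower. Nfyb lost its call without KMT2D WT replicate 1 (adjusted p 0.079) or KMT2D KO replicate 1 or 2 (0.076 and 0.062), and Atf1 without KMT2D KO replicate 3 (0.085).

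Interferon ligands were near the limit of detection. None of the 7 on the list passed the default low-count filter, and 6 of them had at most 3 counts in any library. Ifnb1, which encodes interferon beta and was singled out after its values had been seen, had 4, 0 and 0 counts in KMT2D WT and 17, 17 and 6 in KMT2D KO. It was tested and called higher without that filter (log2 fold change 3.04, adjusted p 0.043), and also without KMT2D WT replicate 1 (6.63, adjusted p 0.0043) or 3 (2.56, adjusted p 0.028) or KMT2D KO replicate 3 (3.28, adjusted p 0.021). Leaving out KMT2D WT replicate 2 gave a test that did not pass (2.39, adjusted p 0.064, edgeR). Leaving out KMT2D WT replicate 1 removed the only KMT2D WT library with a count. In the fits that leave out a library, Ifnb1 passed the filter through its KMT2D KO counts alone. Being tested there was tied to being high in KMT2D KO, so these calls are no separate support. Of the 11 tested receptors, kinases and inhibitors of the pathway, 4 were called higher, 6 lower and 1 not called, with a median log2 fold change of -0.20. Over all tested genes 35.4% were called higher and 35.5% lower, so the calls higher were near that share.

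Among the tested receptors, kinases and inhibitors, the inhibitors rose and some receptor chains fell. Socs3, a feedback inhibitor of JAK signalling, measured 141, 133 and 109 CPM in KMT2D WT and 1098, 1087 and 1048 CPM in KMT2D KO (log2 fold change 3.07, SE 0.08, adjusted p 7.4e-14, edgeR). Socs1, of the same family, rose from 5.40 to 10.7 CPM (0.98). Ifngr2, the signalling chain of the interferon gamma receptor, measured 123, 131 and 118 CPM in KMT2D WT and 49.5, 49.1 and 50.5 CPM in KMT2D KO (log2 fold change -1.32, SE 0.06, adjusted p 2.8e-11, edgeR). Ifnlr1, a receptor chain for interferon lambda, fell from 1.25 to 0.356 CPM (-1.77, adjusted p 0.0059, edgeR), or by 1.18 on the log2 scale without KMT2D WT replicate 3.

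MHC class II genes, which serve the parallel route for peptides taken up from outside, were tested for 7 of 12 members. Of these, 5 were called higher, 0 lower and 2 not called, against 35.4% higher and 35.5% lower over all tested genes. The median log2 fold change of the 7 was 4.01, and all levels were low. H2-Ab1, H2-DMb2 and H2-Oa passed the low-count filter through the KMT2D KO libraries alone. That they were tested was thus tied to their being high there. H2-DMb1, part of the class II peptide editor, rose from 0.399 to 7.40 CPM (log2 fold change 4.21, SE 0.20, adjusted p 8.3e-11, edgeR). H2-DMb2 rose from 0.106 to 4.74 CPM (5.56, from 5, 2 and 9 counts in KMT2D WT), or by 6.30 without KMT2D WT replicate 3. Ciita, the class II transactivator, and Cd74, the invariant chain, were the 2 not called, at log2 fold changes of -1.07 (adjusted p 0.073) and -0.35 (adjusted p 0.59, edgeR).

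Markers of other cell types were counted because leukocytes carry much class I RNA. The 12 leukocyte, myeloid and dendritic markers summed to 31.6 to 37.5 CPM in KMT2D WT and 11.96 to 13.6 CPM in KMT2D KO. Of the 9 tested, 0 were called higher and 7 lower, against 35.5% lower over all tested genes. Among those called lower, Ptprc, Adgre1 and Xcr1 passed the low-count filter through the KMT2D WT libraries alone. That these were tested was thus tied to their being high there. The most abundant of the 12 markers were Cd14 (16.8 and 6.05 CPM) and Cd68 (9.03 and 2.21 CPM), and Ptprc was at 0.517 and 0.107 CPM. Their part in the class I result was not tested. The 9 markers of T, B and NK cells summed to 0.358 to 0.564 CPM in KMT2D WT and 0.639 to 0.873 CPM in KMT2D KO. All 9 were under 1 CPM in both groups, with 2 at 0 in KMT2D WT and 4 at 0 in KMT2D KO, and Cd4 was called higher (0.246 and 0.623 CPM). The 6 endothelial markers summed to 1.18 to 2.46 CPM in KMT2D WT and 0.545 to 1.04 CPM in KMT2D KO.

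The part of the other marker groups in the class I result was not tested. Beside the calls given below, 35.4% of all tested genes were called higher and 35.5% lower. The 9 fibroblast markers summed to 5764 to 5979 CPM in KMT2D WT and 21594 to 22615 CPM in KMT2D KO, with 7 called higher and 2 (Lum and Thy1) lower. Sums of the 8 keratinocyte markers were 11.4 to 15.2 CPM in KMT2D WT and 16.6 to 17.9 CPM in KMT2D KO, but of the 7 tested only Trp63 was called higher (0.784 and 10.2 CPM) and only Dsp lower (6.25 and 1.06 CPM). Without Trp63 the sums were 11.03 to 14.4 CPM in KMT2D WT and 5.86 to 7.55 CPM in KMT2D KO. Those of the 10 cerebellar markers were 1.63 to 2.70 CPM and 5.75 to 7.45 CPM, with 7 under 1 CPM in both groups. The 3 tested, Cbln3, Mbp and Syt1, were all called higher (log2 fold changes 3.05, 1.48 and 2.06). The 11 melanocyte markers summed to 16.0 to 17.8 CPM in KMT2D WT and 50.5 to 59.3 CPM in KMT2D KO, almost all of it Mitf (15.4 and 53.2 CPM). Of the 4 tested, 2 were called higher, Mitf and Mlana (0.0507 and 0.360 CPM), and 0 lower. Mlana passed the low-count filter through the KMT2D KO libraries alone, so its being tested was tied to its being high there. Pmel (0.698 and 1.03 CPM) and Sox10 were not called. The pigment genes Tyr, Tyrp1 and Dct were at most 0.0765 CPM in either group. In these cells labelled as melanoma, 9 of the 11 markers were under 1 CPM in both groups.

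The genes whose pattern over the 6 libraries was most like the average of the 10 were Dtx3l, Scarb1 and Gys1, by the root mean square difference of mean-centred log2 CPM among 12380 genes (0.0385, 0.0416 and 0.0485). Dtx3l measured 36.7, 37.7 and 36.3 CPM in KMT2D WT and 140, 138 and 139 CPM in KMT2D KO. The log2 fold changes of Dtx3l, Scarb1 and Gys1 were 1.92, 1.93 and 1.92, close to the median of the 10 as the measure requires.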

How the data were processed

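RNA sequencing of 3 KMT2D WT and 3 KMT2D KO libraries was read from the deposited whole-number counts per gene. Per the file headers, the authors summed exonic fragments of each mm9 gene with featureCounts 1.5.2, with no strand option and with the default treatment of multi-mapping and multi-gene fragments, which is to leave them out. The submitters' processing notes name mm9, STAR and HTSeq without roles or versions. Libraries were grouped by their labels, and the depth per library is given with the results. All genes were fitted together with edgeR 4.0.16 in R 4.3.3 (TMM, default low-count filter by group, quasi-likelihood F test, group only), with Benjamini-Hochberg adjustment over all 14579 tested genes and a threshold of 0.05. The SE is the size of the log2 fold change divided by the square root of F. The script was tested on simulated data.

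The members and lists were chosen with earlier results of these data known. Besides the 10 genes, Psmb5, Psmb6 and Psmb7, the text names from each list up to 2 called genes per direction with the largest log2 fold change, given a group mean of 1 CPM or more. Of the non-member genes, the 3 most like the average pattern are named, and other genes were named after their values were seen. A gene that the rule took is not reported here. Within-group libraries differed by more than sampling noise (chi-square per degree of freedom 11.1 to 25.0), so none was counted as a duplicate. Alternatives were RLE size factors, library size alone, DESeq2 1.42.0, limma 3.58.1 voom, other low-count filters, robust empirical Bayes, a replicate block, glmTreat and leaving out each library. Intervals cover counting error only, as reads without molecular identifiers are not independent.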

Additional observations from a re-analysis of the deposited data

How the results depend on the processing

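All 10 class I genes were called higher under every alternative except glmTreat (which tests against a minimum change of 1 on the log2 scale), which called 9 and left out H2-D1 at 0.42. Under glmTreat 2823 genes were called in all, 1479 higher and 1344 lower, against 10345, 5164 and 5181. By list, glmTreat called 7 other heavy chains higher, 0 loading chaperones higher and 0 lower, 0 trimming enzymes higher and 0 lower, 0 activators and assembly factors higher and 0 lower, 0 standard 20S subunits higher and 0 lower, 5 regulators higher and 0 lower, and 1 interferon pathway gene higher and 2 lower. With a filter at a mean of 1 CPM, 0 other heavy chains were called lower, since H2-M9 was not tested. Library size alone called 4415 genes higher and 5987 lower, and 0 20S subunits higher and 1 class II gene lower. Leaving out each library in turn gave 0 to 3 20S subunits higher, 4 to 7 lower, and 1 to 3 regulators lower. The replicate numbers did not pair the libraries: deviations from the group means correlated at 0.0154, 0.0043 and 0.0088 between same-numbered libraries, and not every library correlated best with its own number. With a replicate block 10368 genes were called, against 10345 without it, and all 10 class I genes were called higher. Psmb9 and Nlrc5 rest on the fewest counts in KMT2D WT, 122 to 182 and 119 to 167 per library.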
